A study of Rattus norvegicus with 6 samples.

Results

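Glutathione and antioxidant enzymes were followed in testis cells, Sertoli cells by their labels, that were cultured from rats aged 21 days and 9 days. The set was chosen by gene symbol. It took the glutathione S-transferases (symbols starting with Gsta, Gstm, Gstp, Gstt, Gsto, Gstk or Gstz, and the microsomal Mgst), the glutathione peroxidases (Gpx), the peroxiredoxins (Prdx) and genes whose symbol starts with Txn. The superoxide dismutases (Sod), the aldo-keto reductases (Akr, without Akr1c14) and Cat, Gclc, Gclm, Gss, Gsr and Nqo1 completed it. On the arrays 71 of 14506 genes met this rule, and all are called enzymes here, although a symbol does not establish a function. Each was represented by its probe set of highest mean among those naming exactly 1 gene, and 2 further probe sets that name several transferases were left out. No filter on low values was used, so all 71 entered each comparison.

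The study had 3 arrays from 21-day-old rats and 3 from 9-day-old rats, each with total RNA of untreated primary cultures. The labels place the older cells after the phase in which Sertoli cells divide, at puberty, and the younger cells within that phase. At both ages the cells were plated in serum (10%) and purified further by renewing the medium, so they were measured in culture and not in the testis. The labels give neither the strain nor the number of animals behind a culture. Nothing says that replicates came from separate animals, and p-values therefore reflect only how these arrays differ among themselves, which may be technical. All values are log2 signals from the deposited table, and a difference of 1 is a 2-fold difference. The signals have no zero, and those of different probe sets are not compared as amounts.

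Glutathione is a small thiol that cells make by joining glutamate to cysteine, through the ligase of Gclc and Gclm, and then adding glycine, through Gss. Glutathione peroxidases and peroxiredoxins use thiols to reduce peroxides, Gsr and the thioredoxin reductases restore the thiols with NADPH, and glutathione S-transferases couple glutathione to reactive compounds. Superoxide dismutases turn superoxide into hydrogen peroxide, which catalase breaks down, and aldo-keto reductases and Nqo1 reduce carbonyls and quinones. Many of these genes are known targets of the transcription factor NRF2 (Nfe2l2), which KEAP1 holds back. Sertoli cells, which nurse the germ cells, are known to make alpha- and mu-class transferases.

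At both ages, replicate 3 differed from replicates 1 and 2. The replicate numbers of the titles were taken to pair the arrays, which is an assumption, since no label explains them. The deviations of same-numbered arrays from their age means correlated at 0.44, 0.55 and 0.67 for the numbers 1, 2 and 3. They were taken across all genes, which are not independent. Arrays of different numbers were not compared in this way. Deviations within an age cancel, so a shift shared by the arrays numbered 3 would also raise the correlations for numbers 1 and 2. These correlations therefore cannot show that 1 pairs with 1 and 2 with 2, and results by pair rest on the assumption. Markers of peritubular and smooth muscle cells were higher in replicate 3 at both ages, for all 11 measured genes, and 10 of the 11 had lower means at 21 days (median difference -0.30, log2). Their mean log2 signal was 8.18, 7.71 and 9.38 in the 21-day-old replicates, and 8.23, 8.44 and 9.55 in the 9-day-old replicates. Of 24 Sertoli cell markers 21 were named on the array, and 17 of these were higher at 21 days. Their mean log2 signal was 4.84, 5.12 and 5.53 in the 21-day-old replicates, and 4.67, 4.79 and 4.71 in the 9-day-old replicates. Amh, Fshr, Gata1 and Cldn11 were among 8 of these markers whose means lay below the medians of the arrays, 3.78 to 3.87, at both ages, whereas Wt1, Gata4 and Clu lay above them. Of the macrophage markers 13 of 14 lay below those medians, as did 13 of 16 for germ cells, 6 of 8 for endothelial cells and 5 of 8 for Leydig cells. The 8 Leydig cell markers were higher at 21 days for 5 and lower for 3, with differences from -0.13 to 1.59 (log2). Without overlap 2 of the 8 were higher, where this held for 2.74% of all genes, and 0 passed in limma. Of the markers of fibroblasts and stroma 0 of 11 lay below those medians, and 8 of the 11 had lower means at 21 days. Their mean log2 signal was 8.18, 8.34 and 8.00 in the 21-day-old replicates, and 8.33, 8.26 and 8.29 in the 9-day-old replicates. Among them Pdgfra and Pdgfrb were lower at 21 days without overlap, by -0.73 ± 0.18 and -0.61 ± 0.12 (SE), while Thy1 was 1.03 ± 0.40 higher with overlapping groups, and none passed in limma. In RNA of mixed cells, fewer cells of a type and less RNA per cell cannot be told apart.

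Among the 71 enzymes, the largest mean differences between the ages were higher signals at 21 days for Akr7a3, Gstm6, Gpx3, Gstm7 and Gsta4, an aldo-keto reductase, 3 glutathione S-transferases and a secreted glutathione peroxidase. All 14 Txn genes, all 6 peroxiredoxins and all 5 genes of glutathione synthesis and reduction had mean differences within 0.2 on the log2 scale. So did 85.6% of all genes. Of the 71, 49 were higher and 22 lower in the older cultures, and the median log2 difference was 0.071. Over all 14506 genes 46.7% were higher and the median was -0.0093. The means of 17 enzymes lay below the medians of the arrays at both ages, and 14 of the 17 were higher. Of the other 54 enzymes 35 were higher (64.8%), against 40.0% of the 8796 genes not below those medians at both ages. Without 9-day-old replicate 3, 33 of the 71 were higher and the median was -0.026, and without 21-day-old replicate 1, 37 were higher. Without both arrays numbered 3, which leaves whole pairs, 49 were higher and the median was 0.076. No enzyme passed an adjusted p under 0.05 in limma (0 of 71), and neither did any gene (0.0%). At an unadjusted p under 0.05 there were 7 enzymes, all higher at 21 days, where 2.97% of all genes were called. With the replicate number as a block, 0 enzymes and 0.0% of genes passed, and the lowest adjusted p among the enzymes was 0.132, for Gpx3 and Gsta4. At an unadjusted p under 0.05 the block gave 17 enzymes (7.73% of all genes). Of these 15 were higher and 2 lower at 21 days, where 3.29% of all genes were called higher and 4.45% lower.

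For 9 enzymes the 2 ages had no overlapping values (5.72% of all genes). Of these 8 were higher and 1 lower at 21 days, where 2.74% of all genes were higher and 2.98% lower without overlap. At least 2-fold higher means were seen for 5 enzymes (0.352% of all genes), Akr7a3, Gstm6, Gpx3, Gstm7 and Gsta4, and at least 2-fold lower means for 0 (0.0758%). The 5 became 3 without 9-day-old replicate 3 or without 21-day-old replicate 1, where Gpx3 and Gsta4 were below 2-fold. There were 4 without 21-day-old replicate 3, where Gstm6 and Gstm7 were below it and Mgst1 above. Without 21-day-old replicate 2 there were also 4, with Gsta4 below 2-fold. Without both arrays numbered 3 there were 3, with Gstm6 and Gstm7 below 2-fold. In all 3 pairs of arrays with the same number, 28 enzymes were higher at 21 days (10.7% of all genes) and 5 were lower (14.4%). No share was tested against the other genes. A difference within 0.2 on the log2 scale was found for 51 of the 71 (71.8%), against 85.6% of all genes.

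**Figure D1:**
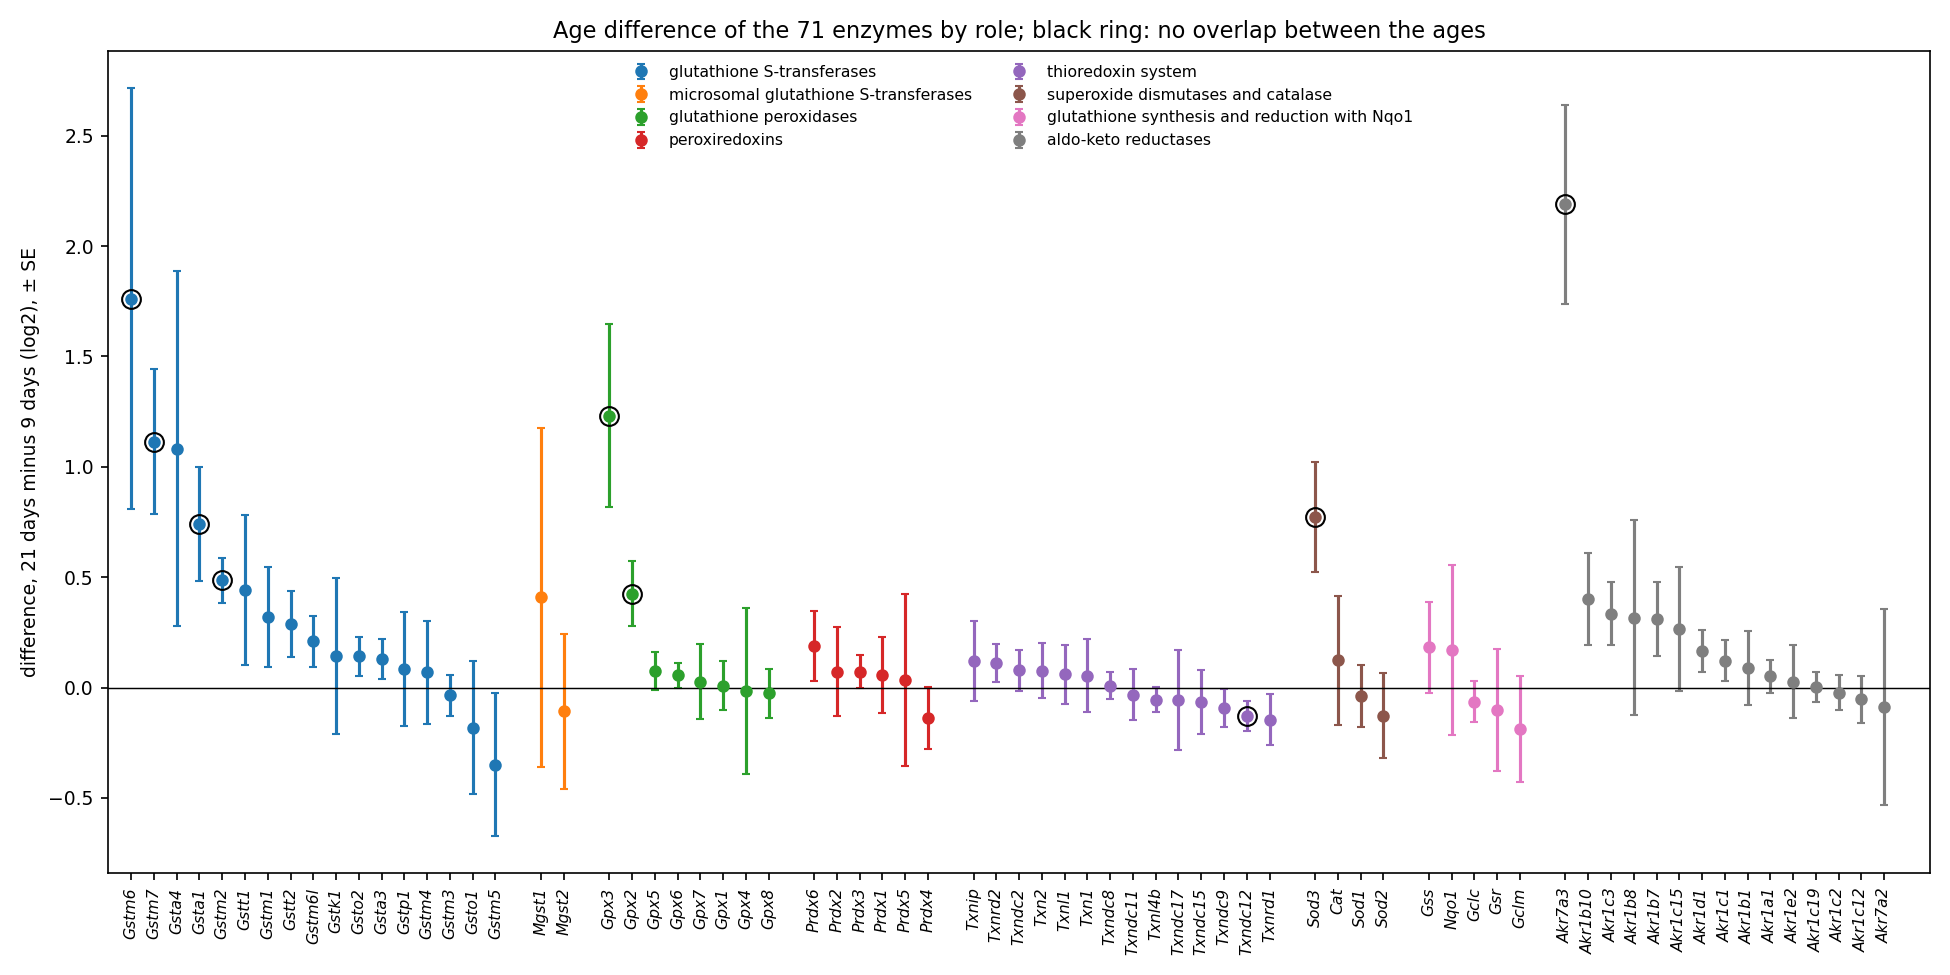
Difference between the ages (21 days minus 9 days, log2; bars are SE from limma, 3 arrays per age) for each of the 71 enzymes, grouped by role. Black rings mark the 9 enzymes whose values did not overlap between the ages, 8 of them above 0. All 14 genes of the thioredoxin system, those with symbols starting with Txn, lie within 0.2 of 0.

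Glutathione S-transferases held 3 of the 5 differences of at least 2-fold. Of 17 soluble members 14 were higher and 3 lower at 21 days, and their median log2 difference was 0.21. Over all genes 46.7% were higher and the median was -0.0093. The ages did not overlap for 4 of the 17, all higher, where 2.74% of all genes were higher without overlap. Gstm6, a mu-class transferase, had signals of 3.12, 3.62 and 6.78 in the 21-day-old replicates, against 2.87, 2.87 and 2.50 in the 9-day-old replicates. The 21-day-old replicate 3 stood far above all other arrays, and the remaining 21-day-old values lay just above the younger ones. All the other signals were below the medians of the arrays, and whether they exceeded background is unknown. The mean difference was 1.76 ± 0.95 (log2, SE), with a 95% interval from -0.59 to 4.11, and 0.63 without 21-day-old replicate 3. Gstm7, next to it in the order of the mu-class genes, had 5.46, 5.83 and 6.77 at 21 days, against 4.93, 4.93 and 4.86 at 9 days. All older cultures were above all younger ones, which lay close together, and replicate 3 was again the highest. Gstm7 differed by 1.11 ± 0.33 (SE), a 2.16-fold difference, and by 0.74 without that array.

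By start position in RefSeq on GRCr8, the protein-coding Gstm genes followed the order Gstm5, Gstm6l, Gstm7, Gstm6, Gstm3l1, Gstm3, Gstm2, Gstm1 and Gstm4. Genes of other names between them were not examined. Their log2 differences in that order were -0.35, 0.21, 1.11 and 1.76, then -0.036 for Gstm3, 0.49 for Gstm2, 0.32 for Gstm1 and 0.069 for Gstm4. Gstm3l1 was not analysed here. The 2 largest differences among these 8 genes thus belonged to genes next to each other in this order, while Gstm5, the first, had the lowest. Gstm2, singled out after its values had been seen, had 7.71, 7.44 and 7.73 at 21 days, against 7.17, 7.21 and 7.05 at 9 days. Its groups did not overlap and its spread was small, with a difference of 0.49 ± 0.10 (SE) and an unadjusted limma p of 0.00336, which did not pass after adjustment. Gstm5 had 8.45, 8.03 and 7.36 at 21 days, against 8.73, 8.10 and 8.05 at 9 days, lower in each pair but with overlapping groups. Probes can bind the transcripts of close relatives, so the share of each mu-class, alpha-class, Akr1b or Akr1c gene in its signal is uncertain.

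The alpha-class transferases Gsta1 and Gsta4 both had higher means at 21 days. Gsta1, a major detoxifying transferase, had 10.00, 9.68 and 9.37 in the 21-day-old replicates, against 9.30, 9.06 and 8.47 in the 9-day-old replicates. The lowest older value just exceeded the highest younger one, and the difference was 0.74 ± 0.26 (log2, SE), a 1.67-fold difference. Gsta4, which conjugates the lipid peroxidation product hydroxynonenal, had 8.12, 7.94 and 6.01 in the 21-day-old replicates, against 7.12, 6.81 and 4.90 in the 9-day-old replicates. The groups overlapped, because both arrays numbered 3 were low, yet each older array exceeded the younger array of its number by a similar amount. The pair differences were 1.00, 1.13 and 1.11, so that the SE of the difference of 1.08 was 0.80 without the block and 0.071 with it. Leaving out a single array breaks a pair, and the difference was then 0.39 without 9-day-old replicate 3 and 1.76 without 21-day-old replicate 3, while without both it was 1.07. A second probe set of Gsta4 gave a difference of 0.98. Gsta4 was singled out after its values had been seen. The third alpha-class member, Gsta3, had means of 2.47 ± 0.15 at 21 days and 2.34 ± 0.050 at 9 days (SD, n = 3 each), below the medians of the arrays.

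The remaining soluble transferases differed less. Gstt1, a theta-class enzyme, had 6.38, 6.07 and 5.26 at 21 days, against 5.69, 5.69 and 5.01 at 9 days, with each pair higher at 21 days and the groups overlapping. Gstp1, the pi-class enzyme, differed by 0.085 ± 0.26 (log2, SE). Gsto1, an omega-class enzyme that also reduces dehydroascorbate, differed by -0.18 ± 0.30 and was lower in each of the 3 pairs, by -0.19, -0.21 and -0.14. With the block, Gsto1 and Gstm5 were the 2 enzymes lower at an unadjusted p under 0.05, and neither passed after adjustment. Among the membrane-bound transferases, Mgst1 had 10.69, 10.53 and 8.75 in the 21-day-old replicates, against 10.43, 10.09 and 8.22 in the 9-day-old replicates. The arrays numbered 3 lay well below the rest at both ages, a gap that exceeded the differences of 0.25, 0.45 and 0.52 within the pairs. Mgst2, which can also make leukotriene C4, had 8.83, 8.87 and 7.91 at 21 days, against 8.78, 9.04 and 8.11 at 9 days, with overlapping groups.

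**Figure D2:**
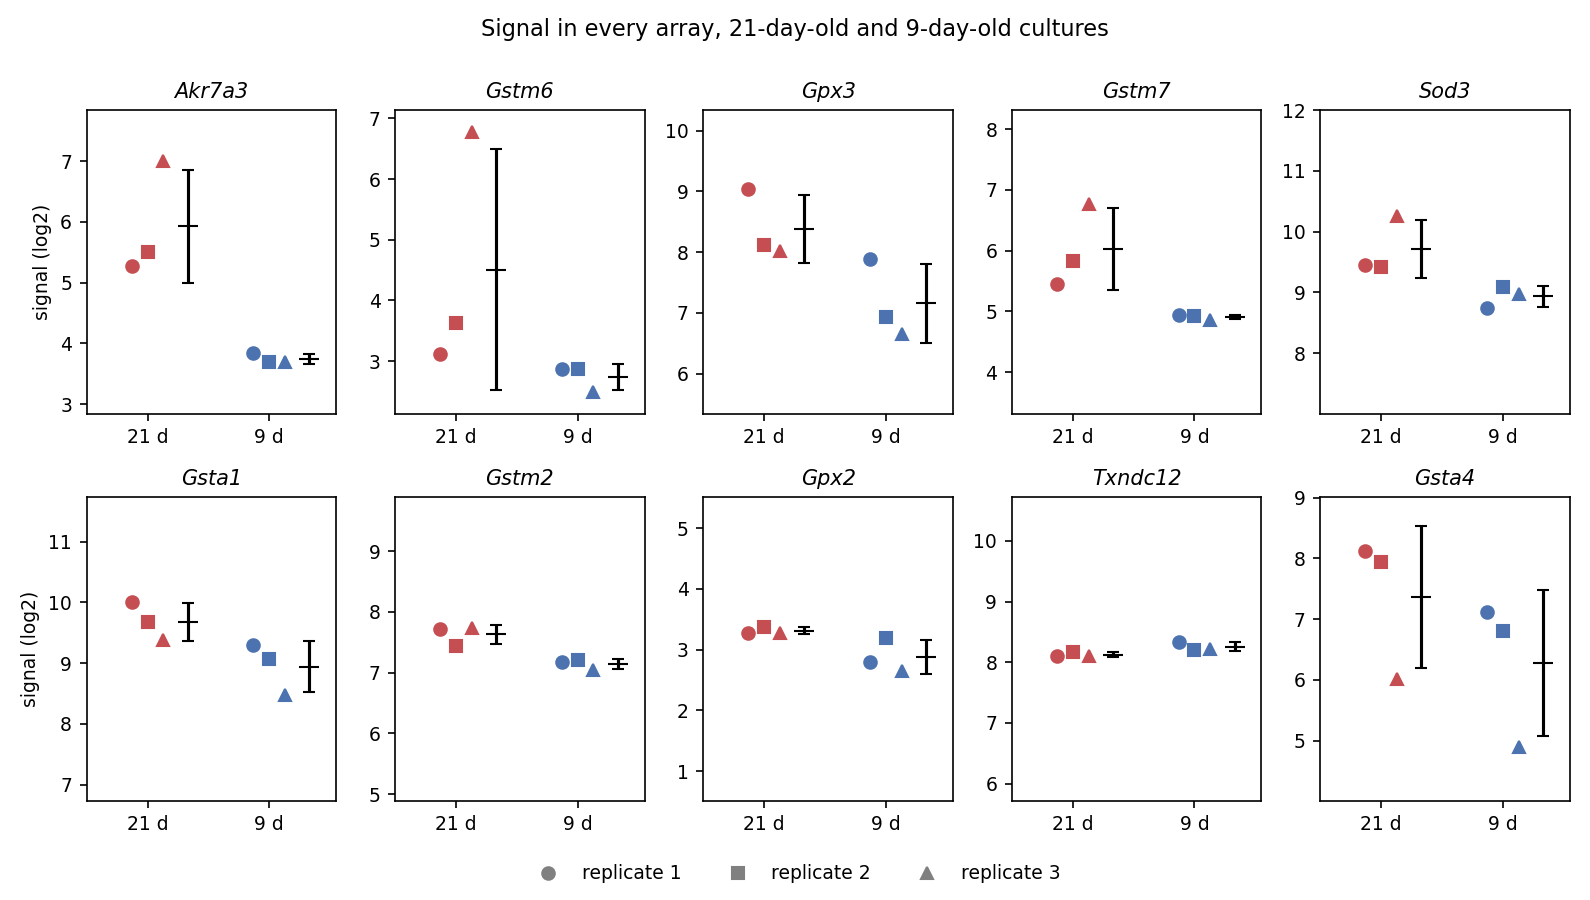
Log2 signal in each array for 10 enzymes, with 21-day-old cultures on the left and 9-day-old cultures on the right of each panel, and each panel spanning 5 log2 units. Circles, squares and triangles are replicates 1, 2 and 3, and the black bar is the mean ± SD of 3 arrays; the triangle of the older cultures stands highest for Akr7a3, Gstm6, Gstm7 and Sod3, whereas both triangles lie low for Gsta4.

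Of the glutathione peroxidases, the secreted form showed the largest difference. Gpx3, the selenium-containing peroxidase of plasma and extracellular fluid, had 9.03, 8.11 and 8.02 in the 21-day-old replicates, against 7.89, 6.93 and 6.65 in the 9-day-old replicates. Every older value was above every younger one, and the pairs differed by similar amounts, 1.15, 1.18 and 1.37. The difference was 1.23 ± 0.41 (log2, SE), a 2.35-fold difference, with a 95% interval from 0.21 to 2.25. Gpx2, an intracellular form best known from the gut, had 3.27, 3.38 and 3.28 at 21 days, against 2.80, 3.20 and 2.65 at 9 days. Its groups did not overlap, but all 6 signals lay below the medians of the arrays, and it differed by 0.42 ± 0.15 (SE).

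Smaller mean differences were found for the peroxidases inside most cells. Gpx1, the cytosolic form, had 9.50, 9.39 and 9.15 in the 21-day-old replicates, against 9.44, 9.32 and 9.25 in the 9-day-old replicates, with a difference of 0.0090 and a 95% interval from -0.27 to 0.28. Gpx4, which reduces lipid peroxides in membranes, had 7.86, 8.11 and 6.83 at 21 days, against 7.96, 7.67 and 7.22 at 9 days. Its wide interval, from -0.94 to 0.91, allows a difference of nearly 2-fold either way. Gpx7 and Gpx8, peroxidases of the endoplasmic reticulum, differed by 0.026 and -0.025. Gpx5, known from the epididymis, and Gpx6 gave signals below the medians of the arrays.

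Among the superoxide dismutases the extracellular form was without overlap. Sod3 had 9.44, 9.42 and 10.26 in the 21-day-old replicates, against 8.75, 9.09 and 8.97 in the 9-day-old replicates. Replicate 3 was the highest of the older cultures, and the difference was 0.77 ± 0.25 (log2, SE), or 0.50 without that array. The cytosolic Sod1 had 8.92, 8.87 and 8.53 at 21 days, against 8.91, 8.90 and 8.61 at 9 days, a difference of -0.038 ± 0.14. The mitochondrial Sod2 had 10.92, 11.14 and 10.47 at 21 days, against 10.90, 11.18 and 10.84 at 9 days, a difference of -0.13 ± 0.19. Catalase (Cat), the peroxisomal enzyme, had 10.53, 9.99 and 9.84 at 21 days, against 10.43, 10.07 and 9.49 at 9 days. For Sod1, Sod2 and Cat the groups overlapped, and the range within each age exceeded the difference between the age means.

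Aldo-keto reductases ranged more widely, with 12 of 15 members higher and 3 lower at 21 days. Akr7a3, known in rat as an aflatoxin aldehyde reductase, had 5.28, 5.51 and 7.00 in the 21-day-old replicates, against 3.84, 3.69 and 3.69 in the 9-day-old replicates. The younger signals were close together and near the medians of the arrays, and every older signal was above them. The difference was 2.19 ± 0.45 (log2, SE), a 4.56-fold difference and the largest of the 71, and 1.65 without 21-day-old replicate 3. Its close relative Akr7a2 had 6.37, 7.01 and 5.46 at 21 days, against 6.59, 6.71 and 5.80 at 9 days, with overlapping groups. Akr7a2 was lowest in the arrays numbered 3, where Akr7a3 was highest at 21 days.

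All 4 members of the Akr1b group, which holds aldose reductase, had higher means at 21 days, by 0.090 to 0.40 on the log2 scale. Akr1b10 had 4.01, 3.77 and 4.28 at 21 days, against 3.24, 3.77 and 3.86 at 9 days, with overlapping groups. Akr1b8 had 11.42, 11.54 and 10.42 in the 21-day-old replicates, against 11.33, 11.06 and 10.04 in the 9-day-old replicates, low in replicate 3 at both ages. Aldose reductase itself, Akr1b1, differed by 0.090 ± 0.17 (SE), and Akr1a1, a general aldehyde reductase, by 0.050 ± 0.075. The Akr1c genes, Akr1d1 and Akr1e2, which reduce steroids and other carbonyls, all had mean signals below the medians of the arrays at both ages, and differed by -0.054 to 0.33. Whether such signals exceeded background is unknown, since no detection calls were used here.

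For the genes of glutathione synthesis and reduction, the mean differences were under 0.2 in either direction. Gclc, the catalytic subunit of the rate-limiting ligase, had 8.29, 8.13 and 8.30 in the 21-day-old replicates, against 8.26, 8.20 and 8.45 in the 9-day-old replicates, with a 95% interval of the difference from -0.30 to 0.17. Its modifier subunit Gclm had 6.73, 6.05 and 6.74 at 21 days, against 6.70, 6.40 and 6.98 at 9 days. In both genes replicate 2 was lowest at both ages. Gss, glutathione synthetase, had 7.66, 7.74 and 7.03 at 21 days, against 7.35, 7.42 and 7.11 at 9 days. Gsr, which regenerates reduced glutathione, had 7.58, 7.33 and 6.70 at 21 days, against 7.55, 7.45 and 6.92 at 9 days. Nqo1, a quinone reductase and a standard NRF2 target, had 10.85, 10.51 and 9.93 in the 21-day-old replicates, against 10.81, 10.43 and 9.54 in the 9-day-old replicates. Gss, Gsr and Nqo1 were each lowest in the arrays numbered 3, and the groups overlapped for all 5 genes.

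All 6 peroxiredoxins differed by less than 0.2, from -0.14 to 0.19 on the log2 scale. Prdx1, a cytosolic peroxiredoxin, had 10.45, 10.29 and 10.02 in the 21-day-old replicates, against 10.41, 10.28 and 9.90 in the 9-day-old replicates. Prdx6, which uses glutathione, had 9.72, 9.71 and 9.21 at 21 days, against 9.41, 9.42 and 9.24 at 9 days. Replicates 1 and 2 of Prdx6 were higher at 21 days and replicate 3 was not. Prdx4, the form of the secretory pathway, had 7.05, 7.10 and 6.68 at 21 days, against 7.24, 7.03 and 6.97 at 9 days, with overlapping groups.

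All 14 genes whose symbol starts with Txn also differed by less than 0.2, with 7 higher and 7 lower at 21 days. Txn1, the cytosolic thioredoxin, had 11.59, 11.48 and 11.07 in the 21-day-old replicates, against 11.41, 11.44 and 11.13 in the 9-day-old replicates. Its reductase Txnrd1 had 8.30, 8.02 and 8.00 at 21 days, against 8.24, 8.38 and 8.13 at 9 days, a difference of -0.15 ± 0.11 (SE). Both genes had overlapping groups. Txndc12, a thioredoxin-like protein of the endoplasmic reticulum, was without overlap and lower at 21 days. It had 8.10, 8.17 and 8.10 at 21 days, against 8.34, 8.20 and 8.22 at 9 days, a difference of -0.13 ± 0.067. Txnip, which binds and inhibits thioredoxin, differed by 0.12 ± 0.18.

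**Figure D3:**
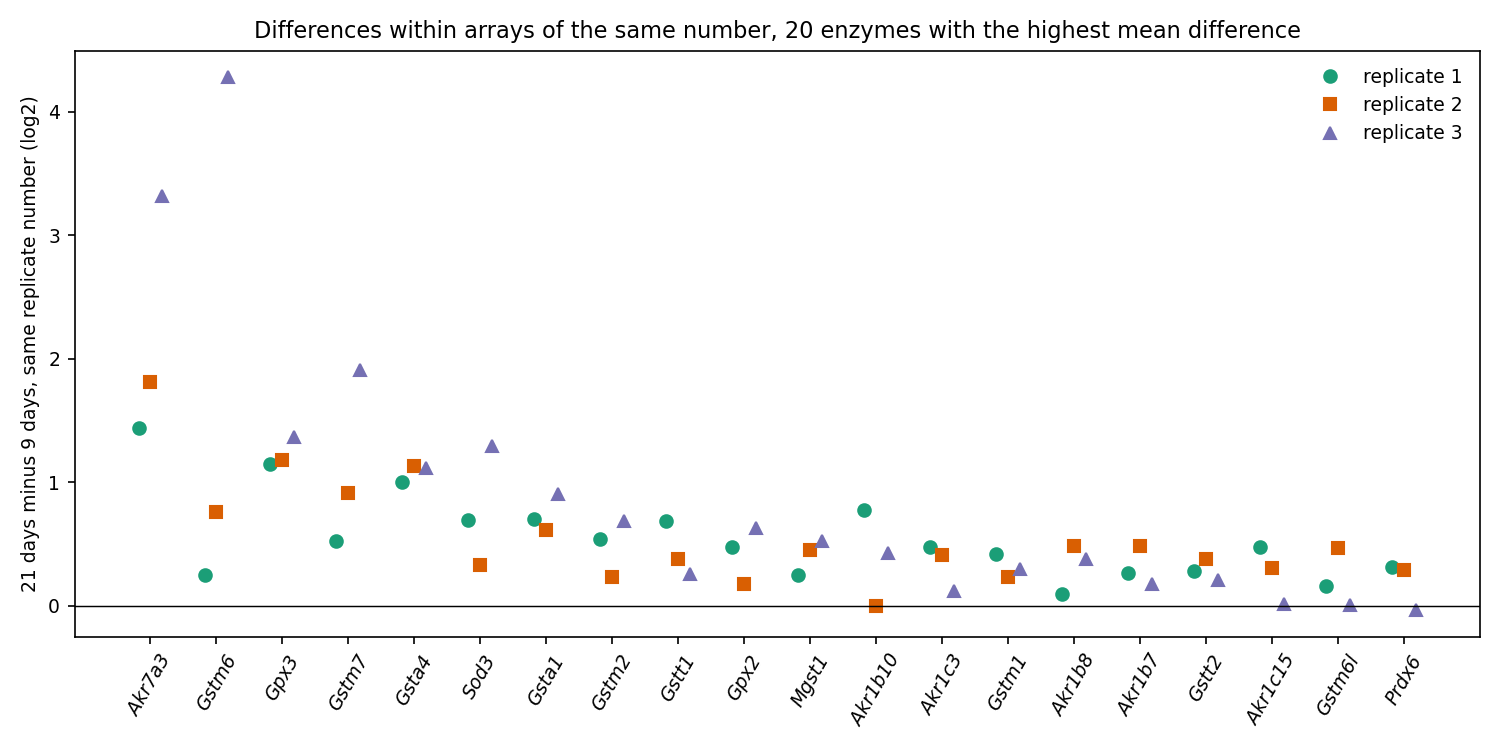
Differences within the pairs of arrays of the same number (21 days minus 9 days, log2) for the 20 enzymes with the highest mean difference, each mark standing for 1 pair. The 3 marks lie close together for Gpx3, Gsta4 and Gsta1, whereas the pair numbered 3 lies far above the others for Akr7a3, Gstm6 and Gstm7.

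For many enzymes, differences between replicates of the same age exceeded those between the ages. In the arrays numbered 3, 49 of the 71 enzymes were below the mean of replicates 1 and 2 at both ages. This held for 32.3% of all genes. Above that mean at both ages were 8 of the 71 enzymes, against 4894 of all 14506 genes. At both ages 15 enzymes were lower there by over 0.5 on the log2 scale, where this held for 2.37% of all genes. The median of this offset for the enzymes was -0.29 at 21 days and -0.20 at 9 days, and for all genes it was 0.00 and 0.0038. For Gsta4 it was -2.02 at 21 days and -2.07 at 9 days, for Mgst1 -1.86 at 21 days and -2.04 at 9 days, and for Akr1b8 -1.06 at 21 days and -1.16 at 9 days.

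Another group was high in replicate 3 at 21 days alone. The offset was 3.40 at 21 days and -0.37 at 9 days for Gstm6, and 1.61 at 21 days and -0.079 at 9 days for Akr7a3. For Gstm7 it was 1.12 at 21 days and -0.069 at 9 days, and for Sod3 0.82 at 21 days and 0.044 at 9 days. Shbg and Inha, which encode androgen binding protein and the inhibin alpha subunit, were likewise highest in 21-day-old replicate 3. They were picked from the 21 measured Sertoli cell markers. Over these 21 the median offset was 0.23 at 21 days and 0.081 at 9 days. It was positive at both ages for 12 markers and negative at both for 3. Shbg had 3.22, 3.88 and 5.66 at 21 days, against 3.18, 2.96 and 3.14 at 9 days, and Inha had 4.11, 5.43 and 6.58 at 21 days, against 3.86, 4.62 and 4.55 at 9 days. The part that smooth muscle, fibroblast or Sertoli cell markers have in these results was not tested.

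**Figure D4:**
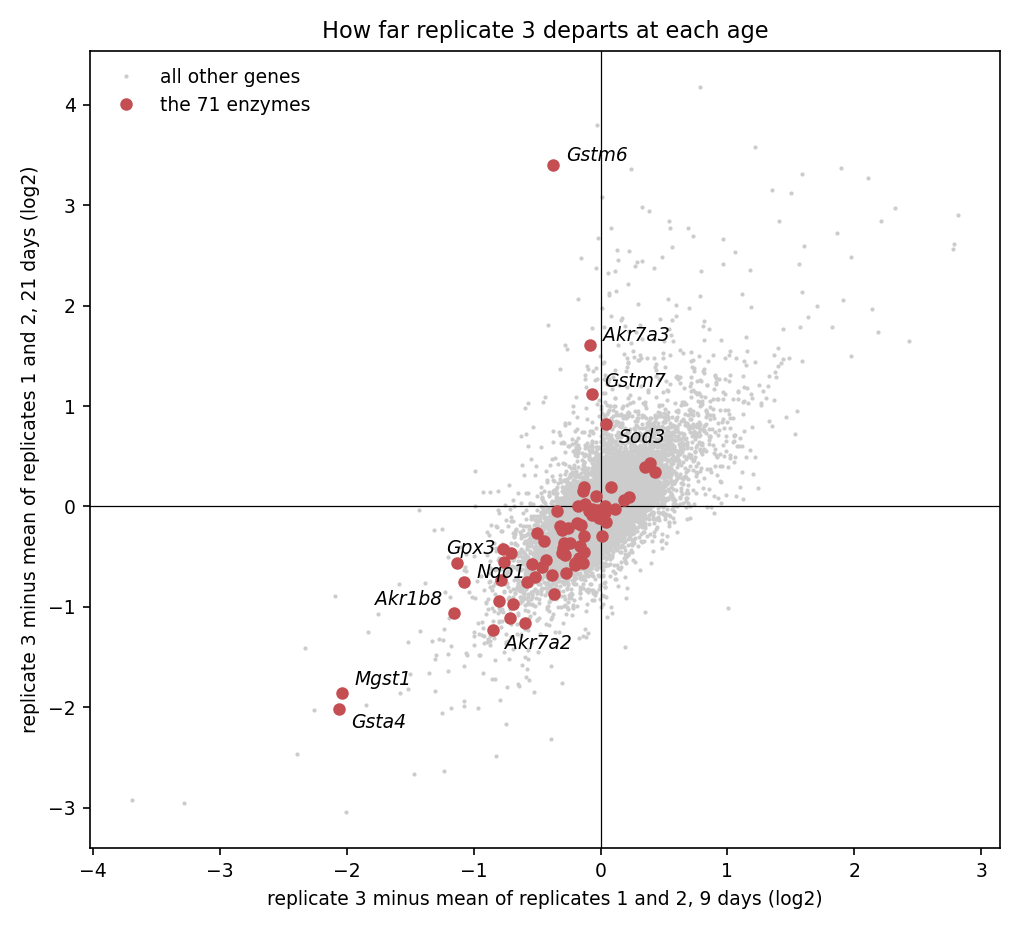
Offset of replicate 3 from the mean of replicates 1 and 2 (log2), at 21 days on the vertical axis and at 9 days on the horizontal axis, with a red point for each of the 71 enzymes and a grey point for each other gene. Mgst1 and Gsta4 lie near -2 at both ages, and Gstm6, Akr7a3, Gstm7 and Sod3 lie above 0 at 21 days and closer to 0 at 9 days.

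Genes around these enzymes were also compared. Of 36 further NRF2 pathway genes 32 were measured, 19 higher and 13 lower at 21 days; their median log2 difference was 0.031 and 0 passed. Nfe2l2 had 9.81, 9.59 and 9.41 at 21 days, against 9.77, 9.61 and 9.50 at 9 days, with a 95% interval of the difference from -0.34 to 0.29. Its repressor Keap1 differed by -0.040 ± 0.17 (SE), and Hmox1, the inducible heme oxygenase, by -0.14 ± 0.37. All 3 had overlapping groups. The largest difference of the list was in Cbr1, a carbonyl reductase, with 9.50, 9.87 and 8.53 at 21 days, against 8.96, 9.07 and 8.08 at 9 days. Cbr1 was higher in each pair and low in the arrays numbered 3, and the related Cbr3 differed by 0.46 ± 0.55. In the arrays numbered 3, 21 of the 32 were lower at both ages, against 32.3% of all genes.

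Of 36 genes of glutathione handling 18 were higher and 18 lower at 21 days, and 0 passed. Without overlap there were 2 higher and 2 lower, where 2.74% of all genes were higher and 2.98% lower without overlap. Ggt1, the surface enzyme that starts the breakdown of glutathione, had 5.66, 6.56 and 5.83 at 21 days, against 5.13, 6.06 and 4.93 at 9 days, higher in each pair with overlapping groups. Clic5, a chloride channel protein with a transferase-like fold, had 4.20, 4.78 and 4.48 at 21 days, against 3.85, 3.95 and 3.59 at 9 days, without overlap. On the lower side, chosen after their values were seen, Slc3a2, a subunit of the cystine transporter, had 9.65, 9.68 and 9.83 at 21 days, against 9.88, 9.93 and 10.17 at 9 days, without overlap. Slc25a40, a mitochondrial carrier, differed by -0.12 ± 0.089 (SE), without overlap, and Cth, which makes cysteine from cystathionine, by -0.43 ± 0.34, lower in each pair. Anpep, a surface aminopeptidase, differed by -0.53 ± 0.32. Of 20 measured genes of selenoprotein synthesis and other selenoproteins 9 were higher and 11 lower, with 0 passing and differences from -0.18 to 0.24. The largest were 0.24 ± 0.15 (SE) for Selenos, a protein of the endoplasmic reticulum, and 0.21 ± 0.11 for Scly, which recycles selenium from selenocysteine.

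Promoter sequences were set beside the differences, since NRF2 acts through the antioxidant response element, whose core is TGACNNNGC. The 250 bases before the RefSeq start were available for 59 of the 71 enzymes, from RefSeq on GRCr8, and both strands were searched. The core was found for 11 of the 59 (18.6%), against 11.0% of 27457 genes with such a window, counting any window of a gene. Among the enzymes without overlap it was found for Gstm7 and Gpx2. It was also found for Gclm, Txnrd1, Prdx1, Sod2, Gstp1, Gstm5, Akr1c15, Gsta3 and Txndc11, whose groups overlapped. The AP-1 motif TGANTCA was found for 5 of the 59 (8.47%), against 6.99% of all genes, and it overlapped the core in Gstp1 and Prdx1. A match is only a match of letters. The windows of 4 of the enzymes with at least 2-fold higher means follow, 5′ to 3′, with the core in capitals where it occurs.
Akr7a3 (chr5:156876471-156876720, plus strand): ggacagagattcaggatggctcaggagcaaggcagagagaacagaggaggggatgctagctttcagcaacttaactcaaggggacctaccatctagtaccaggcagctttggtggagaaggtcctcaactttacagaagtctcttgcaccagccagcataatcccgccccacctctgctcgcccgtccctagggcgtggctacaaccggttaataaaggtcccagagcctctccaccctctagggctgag
Gstm7 (chr2:198260320-198260569, minus strand): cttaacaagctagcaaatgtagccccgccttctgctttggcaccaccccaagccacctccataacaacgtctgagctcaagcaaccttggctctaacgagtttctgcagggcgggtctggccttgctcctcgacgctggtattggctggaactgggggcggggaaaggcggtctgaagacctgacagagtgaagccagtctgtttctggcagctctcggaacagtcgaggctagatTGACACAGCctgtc
Gstm6 (chr2:198272509-198272758, minus strand): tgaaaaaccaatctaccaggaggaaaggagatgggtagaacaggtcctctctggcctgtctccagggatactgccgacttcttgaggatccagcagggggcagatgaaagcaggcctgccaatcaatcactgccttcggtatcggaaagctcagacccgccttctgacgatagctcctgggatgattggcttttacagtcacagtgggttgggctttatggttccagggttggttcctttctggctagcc
Gpx3 (chr10:39529085-39529334, plus strand): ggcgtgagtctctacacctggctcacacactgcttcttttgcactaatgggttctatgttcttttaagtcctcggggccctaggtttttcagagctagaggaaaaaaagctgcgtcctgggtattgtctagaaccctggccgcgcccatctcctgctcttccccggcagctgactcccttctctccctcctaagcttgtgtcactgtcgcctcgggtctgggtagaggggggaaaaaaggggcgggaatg
Of these 4 windows that of Gstm7 held the core, beginning 14 bases before the start, and the others did not. For comparison, the stretches around the core follow for Gpx2, which was higher at 21 days without overlap, and for 3 genes with overlapping groups and differences from -0.19 to 0.055. In all of them the core lies on the strand opposite to the gene and so is read here as its reverse complement.
Gpx2 (chr6:101230034-101230076, minus strand): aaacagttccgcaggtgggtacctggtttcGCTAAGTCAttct
Gclm (chr2:213031933-213032001, plus strand): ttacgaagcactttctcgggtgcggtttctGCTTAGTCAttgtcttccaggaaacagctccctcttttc
Txnrd1 (chr7:22755944-22756012, minus strand): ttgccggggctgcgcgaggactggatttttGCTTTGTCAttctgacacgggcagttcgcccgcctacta
Prdx1 (chr5:135383741-135383809, plus strand): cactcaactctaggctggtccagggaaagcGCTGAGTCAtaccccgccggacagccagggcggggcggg
Cores of the same kind stood before genes without overlap between the ages and before genes with overlapping groups. Whether the core goes with the differences was not tested.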

How the data were processed

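The deposited table holds log2 values for 29214 probe sets on 6 arrays. The authors made them with RMA, as the submitters' processing notes state. RMA corrects background, normalizes probes between arrays and summarises them per probe set; which version and settings were chosen is not given in the sources used here. GEO's series type names binding by array, but the labels describe total RNA, and the values were read as expression. Genes were named through the platform annotation, which gives 1 gene for 15310 probe sets, several for 323 and none used here for 13581. Of the 15310, 15279 were found by Entrez number in RefSeq genes of GRCr8, which changed 0 symbols. The probe set of highest mean over all arrays stood for each of 14506 genes, and 3 of the 71 enzymes had more than 1.

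The difference, 21 days minus 9 days, was fitted with lmFit and eBayes of limma 3.58.1 (R 4.3.3), without covariates or a filter, with Benjamini-Hochberg adjustment over all genes and a threshold of 0.05. The fit was run on simulated data in which all arrays varied independently, unlike the same-numbered arrays here. Such data cannot show how the fit behaves when arrays deviate together. The number of arrays limits the precision: the median SE of a difference was 0.112 over all genes. Detection calls and scan batches were not used here. Same-numbered arrays deviated together, with correlations over 0.1 for each number, and the numbers of the titles were taken to pair the arrays. No label explains these numbers. Arrays of different numbers were not correlated between the ages, so the correlations cannot show that this pairing is the right one. The replicate block and the counts by pair rest on this assumption. Alternatives were the replicate block, other scalings, array weights, filters on mean signal and leaving out arrays. Figures were drawn with matplotlib 3.10.9.

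The members and lists were chosen with earlier results of these data known. Given array by array were members without overlap and at least 0.5 apart, up to 20, the 2 largest differences per role, and 14 fixed genes. Other members given with values were chosen after their values were seen.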

Additional observations from a re-analysis of the deposited data

How the results depend on the processing

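Under all 16 alternatives 0 genes and 0 enzymes passed, although the filters on mean signal kept only 58 and 50 of the 71 enzymes. Among the 26 enzymes given array by array by rule, the lowest adjusted p in limma was 0.132, with the replicate block. The block gave 17 enzymes at an unadjusted p under 0.05 against 7 without it. The count of enzymes without overlap, 9 of 71, was 30 (42.3%) without both arrays numbered 3, against 24.5% of all genes, and 10 to 24 when 1 array was left out. It was 24 (33.8%) without 21-day-old replicate 3, against 16.4% of all genes, 15 (21.1%) without 9-day-old replicate 1, against 12.3%, and 15 (21.1%) without 9-day-old replicate 3, against 13.1%. It was nearer to the share of all genes without 21-day-old replicate 1, at 13 (18.3%) against 15.1%, without 21-day-old replicate 2, at 12 (16.9%) against 13.8%, and without 9-day-old replicate 2, at 10 (14.1%) against 12.2%. Fewer arrays make such gaps more common by construction. The median log2 difference of 0.071 ranged from -0.026 without 9-day-old replicate 3 to 0.17 without 21-day-old replicate 3, and was 0.025 without 21-day-old replicate 1.

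For 21 of the 26 enzymes given array by array by rule, leaving out some array shrank the difference by over 1.5 times or turned its sign. The exceptions were Akr7a3, Gpx2, Gpx3, Gsta1 and Txndc12. The sign turned for 13, none of them called, when 1 array was left out. By enzyme, the ranges were Cat from -0.13 to 0.34, Gclc from -0.12 to 0.010, Gclm from -0.33 to 0.040, Gpx1 from -0.068 to 0.11, Gpx4 from -0.27 to 0.37, Gsr from -0.29 to 0.15, and Mgst1 from -0.27 to 1.03. For the rest they were Mgst2 from -0.37 to 0.21, Nqo1 from -0.19 to 0.44, Prdx1 from -0.094 to 0.17, Sod1 from -0.13 to 0.084, Sod2 from -0.28 to 0.059, and Txn1 from -0.051 to 0.21. Gpx1 was -0.016 with median centring. Gpx4 was 0.013 with quantile normalization, 0.018 with array weights and 0.17 without both arrays numbered 3. The causes were not tested. Arrays give no depth, and without detection calls the lower limit of signal is unknown.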

Other observations

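Further genes of the oxidant balance were compared, from lists chosen with earlier results of these data known. Of 29 measured sources of oxidants 9 were higher and 20 lower at 21 days, and 0 passed in limma; at an unadjusted p under 0.05 there was 1, where 2.97% of all genes were called. Xdh, xanthine oxidoreductase, which makes urate and can release superoxide and hydrogen peroxide, had 6.71, 6.64 and 4.69 in the 21-day-old replicates, against 4.69, 4.85 and 3.69 in the 9-day-old replicates. Its groups overlapped, with replicate 3 low at both ages, and the difference was 1.60 ± 0.63 (log2, SE), or 2.02, 1.79 and 1.00 within the pairs. The peroxisomal oxidase gene Dao differed by -0.23 ± 0.16, at mean signals below the medians of the arrays.

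Of 14 measured scavengers of metals and heme 8 were higher and 6 lower at 21 days, and 0 passed in limma, with 3 at an unadjusted p under 0.05, which were Hpx, Tf and, lower at 21 days, Steap4. Of all genes 2.97% were called at that limit. Hpx, which encodes the heme carrier hemopexin, had 8.99, 9.84 and 9.12 at 21 days, against 6.49, 7.97 and 7.41 at 9 days. Tf, the iron carrier transferrin and also a marker of Sertoli cells, had 8.33, 8.76 and 11.13 at 21 days, against 5.09, 6.16 and 6.19 at 9 days. Steap4, a metal reductase chosen after its values were seen, had 4.03, 4.20 and 4.15 at 21 days, against 4.51, 4.42 and 4.37 at 9 days. In none of these 3 genes did the ages overlap, and lack of overlap was seen for 5.72% of all genes. The p-values that singled out the 3 come from the same signals.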
